A study of Mus musculus with 8 samples.

Results

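The genes described here are 33 genes of sebum and fatty acid synthesis, read in dorsal skin of mice fed a collagen diet and of mice fed a control diet. They were chosen by name, with earlier results of these data known. Each was read from 1 probe set, the one of highest mean among those annotated to that symbol alone. Of the 33 genes, 30 had such a probe set among 18193 genes on the array, and 29 passed a filter that left out the lowest 30% of genes by mean value. *Awat1*, *Awat2* and *Soat1* were not named by any probe set used here. *Mogat1*, a monoacylglycerol acyltransferase, lay below the filter and was not tested.

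Sebaceous glands are outgrowths of the hair follicle whose cells fill with lipid droplets and burst to release sebum, a mixture rich in wax esters, triglycerides and sterol esters. Their cells turn acetyl-CoA into palmitate, lengthen and desaturate it, and join the products to glycerol, cholesterol or fatty alcohols. Adipocytes and keratinocytes use many of the same enzymes, and the sebaceous gland stands out by wax ester formation.

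The collagen group was female mice of Hos:HR-1, a hairless strain, fed for 12 weeks a diet of 2 g fish-scale collagen hydrolysate for each 100 g of AIN-93G. The control group was female Hos:HR-1 mice fed AIN-93G, a purified rodent diet, for the same 12 weeks. The mice were 9 weeks old at the start and 21 weeks old when sampled. Arrays are at hand for 4 mice of each diet, out of 8 per diet in the study, and the labels call them biological replicates.

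Each array measured whole powdered skin, so that fewer cells of a type and less RNA per cell cannot be told apart. All markers listed for basal keratinocytes (7), suprabasal keratinocytes (6) and dermal fibroblasts (6) passed the filter. The deposited values are log2 values, and they differed very little between arrays. The median SD of a tested gene over the 8 arrays was 1.99e-05, and 419 of 12735 tested genes (3.29%) had an SD above 0.001. Among the 29 genes the SD ran from 5.27e-07 in *Pm20d1* to 0.0342 in *Scd3*, and it was above 0.001 in 3 of them, *Scd3*, *Thrsp* and *Elovl6*. The sources used here do not give how the values were summarized, and a deposited difference cannot be read as a fold change of RNA. Each difference (collagen minus control) is divided by the pooled SD within diets of that gene and given in these SD units, with deposited values beside it. The precision is limited by the number of arrays, and signal over background was not at hand.

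On the collagen diet all 3 elongases and 2 of 3 lipid droplet genes stood lower and 5 of 6 desaturases higher as deposited, but no gene passed the test. Of the 29 genes, 16 were lower, 13 were higher and the median was -0.38 SD units, against 54.5% lower and a median of -0.080 SD units over all 12735 genes tested. The count at an adjusted p below 0.05 in limma was 0 of 29, against 0% of all genes. At an unadjusted p below 0.05 stood 4 of the 29, namely *Cidea*, *Elovl3*, *Dgat1* and *Elovl6*, and all 4 were lower. Over all genes 5.36% stood at that mark, 4.15% lower and 1.21% higher. The diets did not overlap in 1 of the 29 genes, *Cidea*, against 3.31% of all genes (2.53% lower and 0.777% higher). After median centring of the arrays 24 of the 29 were lower (median -0.18 SD units) and after quantile normalization 12 of 22 (median -0.084 SD units), with 86.5% and 66.9% of all genes lower in these settings. The median over all genes was -0.151 SD units after median centring and -0.151 after quantile normalization. The same 4 genes stood at an unadjusted p below 0.05 after median centring, against 0.448% of all genes lower at that mark, and there the diets did not overlap in *Elovl3* and *Elovl6* but overlapped in *Cidea* (0.204% of all genes without overlap). Centring shifts all genes of an array alike, which weighs most on genes of small spread. The SD of these 4 ran from 0.000187 (*Dgat1*) to 0.00113 (*Elovl6*), against a median of 1.99e-05, so these shares do not compare genes of like spread. After quantile normalization 0 of 22 stood at that mark (0.35% of all genes lower) and 0 were without overlap (0.0895% of all genes). The adjusted p of the 29 genes lay between 0.545 and 0.999 in limma.

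**Figure D1:**
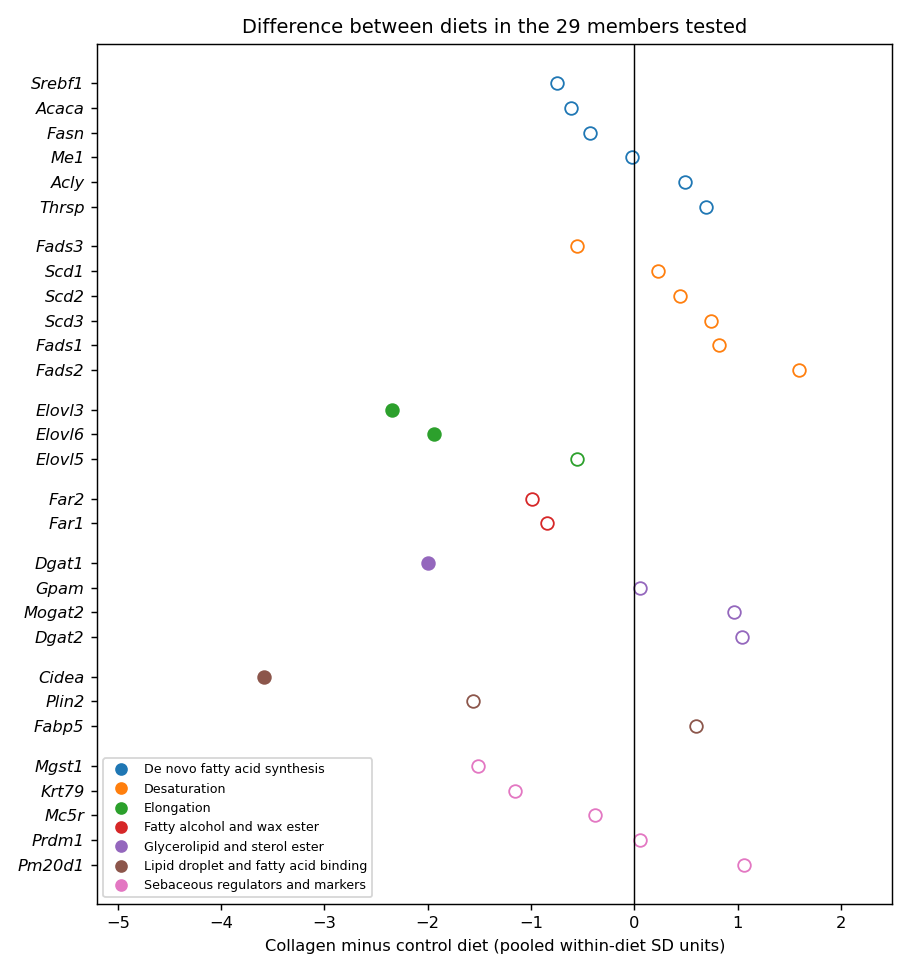
Difference between the diets (collagen minus control, in pooled within-diet SD units, horizontal axis) in the 29 genes tested, grouped and coloured by role (n = 4 arrays per diet). Filled circles mark the 4 genes with an unadjusted p below 0.05, all of them lower on the collagen diet, and open circles the rest, of which 19 lie within 1 SD unit of 0.

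*Cidea* (probe set 1417956_at) encodes a protein of the lipid droplet surface that fuses small droplets into large ones, in sebocytes and in brown fat. Its deposited log2 values were 11.60208, 11.60194, 11.60187 and 11.60200 in collagen replicates 1 to 4, against 11.60243, 11.60250, 11.60224 and 11.60227 in control replicates 1 to 4. The highest collagen replicate lay below the lowest control replicate. The difference was -3.59 SD units, or -0.000387 ± 7.27e-05 on the deposited log2 scale (SE, n = 4 per diet), with an adjusted p of 0.545 in limma. An exact two-sided permutation test of this gene alone gave p = 0.0286, the smallest that 4 arrays against 4 allow. By construction every gene without overlap of the diets gives this p, and 3.31% of all genes were without overlap. The permutation p therefore adds nothing to the lack of overlap. The diets overlapped after median centring, and after quantile normalization their means were equal, so that the gene had no direction there.

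The other droplet genes did not pass either. *Plin2* (1448318_at), which coats the droplet surface, differed by -1.56 SD units with overlapping diets (adjusted p = 0.950 in limma). *Fabp5* (1416021_a_at), the fatty acid carrier of the epidermis, differed by 0.60 SD units, and by -0.14 SD units after median centring. Both had equal values on all arrays after quantile normalization.

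All 3 elongases were lower on the collagen diet as deposited and after median centring, and *Elovl5* alone had equal diet means after quantile normalization. Of all genes 54.5% were lower as deposited and 86.5% after median centring. Elongases add carbon units to fatty acids in the endoplasmic reticulum, and *Elovl3* is known for the very long chains of sebum. *Elovl3* (1420722_at) had 10.81607, 10.81562, 10.81555 and 10.81643 in collagen replicates 1 to 4, against 10.81676, 10.81683, 10.81663 and 10.81642 in control replicates 1 to 4. Collagen replicates 2 and 3 were lowest, and collagen replicate 4 lay just above control replicate 4, so the diets overlapped by this pair. The difference was -2.35 SD units, or -0.000742 ± 0.000213 on the deposited log2 scale (SE, n = 4 per diet), with an adjusted p of 0.777 in limma. Over single arrays left out it ran from -4.05, without collagen replicate 4 (adjusted p = 0.481 in limma), to -2.05 SD units. Leaving out an array that lies toward the other diet widens a difference by construction, here and in the genes below.

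*Elovl6* (1417404_at) encodes the enzyme that lengthens palmitate. Its values were 11.95479, 11.95466, 11.95562 and 11.95406 in collagen replicates 1 to 4, against 11.95737, 11.95695, 11.95566 and 11.95543 in control replicates 1 to 4. Control replicates 1 and 2 stood highest, and collagen replicate 3 lay above control replicate 4. The difference was -1.93 SD units, or -0.00157 ± 0.000546 on the deposited log2 scale (SE, n = 4 per diet), with an adjusted p of 0.872 in limma. Its other 2 probe sets differed by -1.52 SD units (1417403_at) and -0.86 SD units (1442656_at), the same way. *Elovl5* (1437211_x_at), which lengthens polyunsaturated fatty acids, differed by -0.55 SD units, while its other probe set, 1415840_at, stood at 0.014 SD units.

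**Figure D2:**
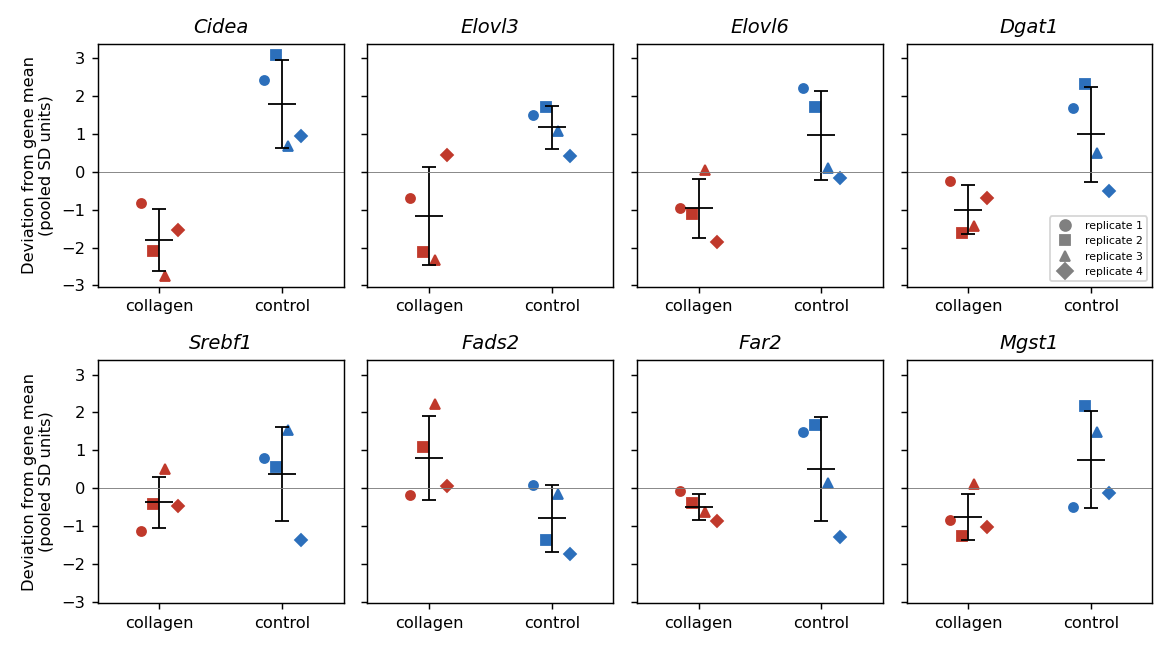
Deviation of each array from its gene's average across 8 arrays (pooled within-diet SD units, vertical axis) in 8 genes, with the collagen diet left and the control diet right. Symbols mark replicates 1 to 4 of each diet, and bars the mean and SD of 4 arrays. *Cidea* is the gene without overlap between the diets, and *Fads2* the gene of these 8 whose collagen-diet mean is higher.

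Triglyceride enzymes did not share a direction as deposited. *Dgat1* (1418295_s_at) encodes an enzyme of the last step of triglyceride synthesis, which can also make wax and retinyl esters. It had 9.85435, 9.85416, 9.85419 and 9.85429 in collagen replicates 1 to 4, against 9.85460, 9.85468, 9.85444 and 9.85431 in control replicates 1 to 4. Collagen replicate 1 lay above control replicate 4, and the other 3 collagen-diet arrays lay below every control-diet array. The difference was -1.99 SD units, or -0.000264 ± 8.93e-05 on the deposited log2 scale (SE, n = 4 per diet), with an adjusted p of 0.861 in limma. With single arrays left out it lay between -3.25, without control replicate 4 (adjusted p = 0.646 in limma), and -1.70 SD units. Its second probe set, 1445229_at, differed by 0.20 SD units, and an ending of _s_at marks probes that can match more than one transcript. *Dgat2* (1422678_at), an unrelated enzyme for the same step, differed by 1.04 SD units, and by -1.13 SD units after quantile normalization. *Gpam* (1419499_at), the first acyltransferase of the pathway, differed by 0.056 SD units, and *Mogat2* (1455099_at) by 0.97 SD units, both turning lower after median centring (-0.18 and -0.012 SD units). *Mogat1* (1419504_at), below the filter, stood at 0.16 SD units without a test.

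The genes of palmitate synthesis and its control were lower in 4 and higher in 2, each within 1 SD unit of 0 and none with an unadjusted p below 0.05. *Srebf1* (1426690_a_at) encodes the transcription factor that switches on fatty acid synthesis, and it had the smallest p of these. Its values were 9.95067, 9.95068, 9.95070 and 9.95068 in collagen replicates 1 to 4, against 9.95070, 9.95070, 9.95071 and 9.95067 in control replicates 1 to 4. In SD units from the gene's mean the collagen replicates stood at -1.13, -0.41, 0.52 and -0.48, and the control replicates at 0.79, 0.56, 1.53 and -1.38. Control replicate 4 was the lowest of all 8 arrays. The difference was -0.75 SD units (adjusted p = 0.999 in limma). It ran from -2.18, without control replicate 4 (adjusted p = 0.871 in limma), to -0.40 SD units over single arrays left out.

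*Acaca* (1434185_at), which makes malonyl-CoA, differed by -0.61 SD units and *Fasn* (1423828_at), fatty acid synthase, by -0.43 SD units. After quantile normalization *Acaca* stood at 0.10 SD units and *Fasn* had equal diet means. *Me1* (1416632_at), malic enzyme, which supplies NADPH, differed by -0.020 SD units. *Acly* (1439459_x_at), which makes cytosolic acetyl-CoA, differed by 0.49 SD units, and 4 of its 5 further probe sets differed the other way. *Thrsp* (1424737_at), a thyroid hormone-responsive protein tied to lipogenesis, varied more than the others. It had 9.622, 9.620, 9.627 and 9.625 in collagen replicates 1 to 4, against 9.621, 9.613, 9.631 and 9.611 in control replicates 1 to 4. The collagen-diet arrays lay inside the range of the control-diet arrays, with a difference of 0.69 SD units (adjusted p = 0.999 in limma).

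Promoters are shown for *Fasn* and *Elovl6*, since the product of the first enzyme is the substrate of the second and both genes are known targets of the *Srebf1* protein. The windows hold the 250 bases before the annotated start, from RefSeq on GRCm38.p6, written 5′ to 3′ on the gene's strand, with matches to the motifs below in capitals. *Fasn* lies on the minus strand of chromosome 11 (chr11:120824548-120824797) and *Elovl6* on the plus strand of chromosome 3 (chr3:129532136-129532385).
Fasn: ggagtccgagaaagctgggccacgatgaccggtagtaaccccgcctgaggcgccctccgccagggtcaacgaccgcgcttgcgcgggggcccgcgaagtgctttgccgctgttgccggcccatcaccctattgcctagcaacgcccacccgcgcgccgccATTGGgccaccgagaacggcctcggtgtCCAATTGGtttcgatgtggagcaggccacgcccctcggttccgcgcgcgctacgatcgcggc
Elovl6: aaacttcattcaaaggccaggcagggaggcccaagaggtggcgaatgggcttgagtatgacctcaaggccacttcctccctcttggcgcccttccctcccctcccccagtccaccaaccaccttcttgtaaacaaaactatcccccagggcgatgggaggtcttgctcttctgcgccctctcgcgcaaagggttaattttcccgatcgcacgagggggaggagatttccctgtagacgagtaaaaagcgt
The motifs searched on both strands were TCACNCCAC (sterol regulatory element), CACGTG (E-box) and CCAAT (the box bound by NF-Y). The *Fasn* window holds CCAAT 3 times, beginning 90, 62 and 59 bases before the start, and the last 2 overlap on opposite strands. The *Elovl6* window holds none of the 3 motifs. Windows were at hand for 22 of the 33 genes (28 windows, since some genes have several starts). CCAAT was in 14 of these 28 windows and in 33.8% of all 32851 windows, CACGTG in 1 (*Elovl5*) against 6.02%, and TCACNCCAC in 0 against 1.05%. A match is a description of letters, and the arrays do not measure binding.

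Desaturases, which put double bonds into fatty acids, were higher in 5 of 6 genes as deposited, in 3 of 6 after median centring and in 3 of 5 after quantile normalization. Of all genes 86.5% were lower after median centring and 66.9% after quantile normalization. None of the 6 had an unadjusted p below 0.05. *Fads2* (1419031_at), the first desaturase of polyunsaturated fatty acid synthesis, which in human sebocytes also desaturates palmitate, had the smallest p. Its values in SD units from the mean were -0.17, 1.09, 2.22 and 0.047 in collagen replicates 1 to 4, against 0.077, -1.37, -0.16 and -1.73 in control replicates 1 to 4, around a mean log2 level of 7.0005. Collagen replicates 2 and 3 were highest, and collagen replicates 1 and 4 lay below control replicate 1. The difference was 1.59 SD units, or 2.91e-05 ± 1.23e-05 on the deposited log2 scale (SE, n = 4 per diet), with an adjusted p of 0.944 in limma. Of its further probe sets, 1443838_x_at differed by 4.04 SD units without overlap of the diets, at a mean log2 level of 6.42 that lies below the filter, and 1449325_at by -0.095 SD units.

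*Scd1* (1415964_at), *Scd2* (1415822_at) and *Scd3* (1450956_at) are stearoyl-CoA desaturases, which make oleate and palmitoleate, and *Scd1* and *Scd3* are known from the mouse sebaceous gland. They differed by 0.23, 0.44 and 0.75 SD units, each with an adjusted p of 0.999 in limma. *Scd1* stood at -0.14 SD units after median centring, and its second probe set, 1415965_at, at -1.96 SD units. *Scd3* had the widest spread of the 29 genes, with 7.917, 7.977, 7.945 and 7.949 in collagen replicates 1 to 4, against 7.904, 7.917, 7.980 and 7.885 in control replicates 1 to 4. Control replicate 3 was highest and control replicate 4 lowest, so the range of the control diet enclosed that of the collagen diet. These genes are close relatives in sequence, and binding of one gene's RNA to another's probes was not tested. *Fads1* (1423680_at), which acts after *Fads2*, differed by 0.82 SD units, and by -0.27 and -0.090 SD units after quantile normalization and median centring. *Fads3* (1418773_at) differed by -0.55 SD units.

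Of the genes of wax ester formation, 2 of 4 had a probe set, and both were lower as deposited. *Far1* (1426369_at) and *Far2* (1455889_at) encode the reductases that turn fatty acyl-CoA into fatty alcohols, the alcohol part of wax esters. *Far2* had 11.32092, 11.32080, 11.32070 and 11.32060 in collagen replicates 1 to 4, against 11.32154, 11.32161, 11.32101 and 11.32044 in control replicates 1 to 4. Control replicate 4 was the lowest array and the other 3 control replicates were the highest. The difference was -0.99 SD units (adjusted p = 0.999 in limma) and 0.71 SD units after quantile normalization. Single arrays left out gave -2.71, without control replicate 4 (adjusted p = 0.714 in limma), to -0.66 SD units. *Far1* differed by -0.84 SD units, and 3 of its 4 further probe sets differed the same way.

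Markers and regulators of the gland were split, with 3 lower and 2 higher as deposited and 5 of 5 lower after median centring. In that setting 86.5% of all genes were lower. *Mgst1* (1415897_a_at), a membrane-bound glutathione transferase abundant in sebocytes, had the smallest p. Its values in SD units from the mean were -0.85, -1.25, 0.12 and -1.03 in collagen replicates 1 to 4, against -0.51, 2.16, 1.49 and -0.13 in control replicates 1 to 4, around a mean log2 level of 12.97. Control replicates 2 and 3 were highest, and collagen replicate 3 lay above control replicates 1 and 4. The difference was -1.51 SD units, or -2.32e-05 ± 1.04e-05 on the deposited log2 scale (SE, n = 4 per diet), with an adjusted p of 0.965 in limma. *Krt79* (1427352_at), a keratin of the duct that joins gland and follicle, differed by -1.16 SD units. Its difference ran from -2.44, without collagen replicate 2 (adjusted p = 0.999 in limma), to -0.86 SD units over single arrays left out. *Mc5r* (1460723_at), a melanocortin receptor of sebum secretion, differed by -0.38 SD units. *Prdm1* (1420425_at), a transcriptional repressor, differed by 0.059 SD units and *Pm20d1* (1426876_at), which joins fatty acids to amino acids, by 1.06 SD units. *Prdm1* and *Pm20d1* were lower after median centring, at -0.072 and -0.14 SD units. All 4 had an adjusted p of 0.999 in limma.

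Seen by array, the spread among the control mice was wider than the distance between the diets. The mean deviation of the 29 genes was -0.012, -0.22, -0.17 and -0.31 SD units in collagen replicates 1 to 4, against 0.79, 0.30, 0.33 and -0.69 in control replicates 1 to 4. Control replicate 1 held the highest value of the 8 arrays in 9 of the 29 genes, and control replicate 4 the lowest in 11. In the palmitate-building genes control replicate 4 stood at -1.18 SD units and in the desaturases at -1.03, below every other array. It was also lowest in the glycerolipid and sterol ester group, at -1.09 SD units. In the elongases collagen replicates stood at -0.345, -1.37, -0.996 and -0.506 SD units and control replicates at 1.77, 1.41, 0.395 and -0.350, so that the diets overlapped only where control replicate 4 lay just below collagen replicate 1.

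Without control replicate 4, 7 of the 29 genes stood at an unadjusted p below 0.05, all lower, against 4 with all arrays. Over all genes 3.78% were lower and 1.63% higher at that mark. *Far2*, *Mgst1* and *Srebf1* joined *Cidea*, *Elovl3*, *Elovl6* and *Dgat1*. The diets did not overlap in 6 of the 29, all lower, against 6.06% of all genes (4.14% lower), and the count at an adjusted p below 0.05 in limma was still 0. The median of the 29 was -0.68 SD units without this array, against -0.070 over all genes. This array was singled out because it was the lowest control in these same genes, so that more genes lower on the collagen diet follow from leaving it out. Without control replicate 3, 5 of the 29 were lower at that mark, against 3.82% of all genes, and 3 were higher (*Dgat2*, *Scd3* and *Thrsp*), against 1.29%. *Scd3* stood at 2.08 SD units there. The diets did not overlap in 3 of the 29 in that setting, *Cidea* and *Plin2* (lower) and *Scd3* (higher), against 5.63% of all genes (4.08% lower). Without control replicate 1, 14 of the 29 were lower and 15 higher (median 0.0014 SD units), against 56.3% lower and a median of -0.12 SD units over all genes. At an unadjusted p below 0.05 *Cidea*, *Elovl3* and *Mgst1* were lower there, against 4.31% of all genes, and *Fads2* was higher. Of all 12735 genes 723 stood at that mark there, and 75.9% of these 723 were lower. The lower count was 3 as well without collagen replicate 2, collagen replicate 4 or control replicate 2 (2.98%, 4.42% and 3.58% of all genes). It was 4 without collagen replicate 1, where *Fads2* was also higher, or collagen replicate 3 (4.24% and 3.37%). Without collagen replicate 1, 696 of all 12735 genes stood at that mark, and 77.6% of these 696 were lower. Control replicate 4 and collagen replicate 1 were also the arrays low in skeletal muscle markers. The mean log2 level of 17 muscle genes was 9.81, 10.00, 10.11 and 10.09 in collagen replicates 1 to 4, against 10.01, 10.04, 10.00 and 9.82 in control replicates 1 to 4. The part of muscle content in these results was not tested. Without both arrays 7 of the 29 were lower at an unadjusted p below 0.05, against 3.6% of all genes.

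**Figure D3:**
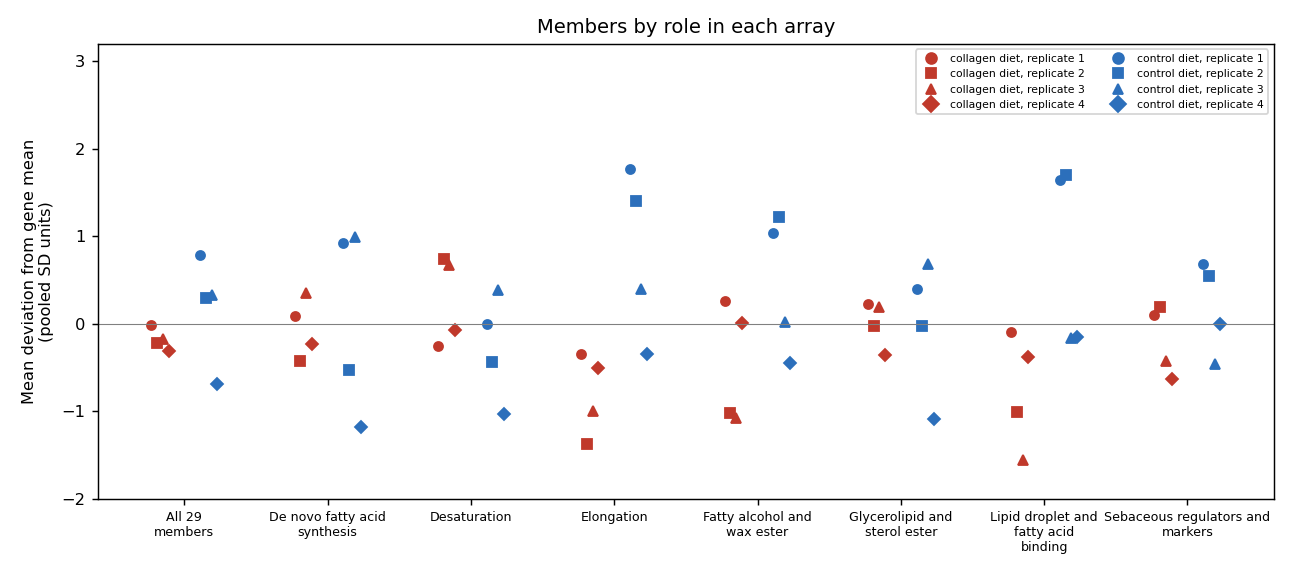
Mean deviation from the gene mean (pooled within-diet SD units, vertical axis) of the 29 genes and of each role group in every array, collagen diet left of control diet within each group, with symbols for replicates 1 to 4. Control replicate 4 is the lowest array for all 29 genes together (-0.69), for palmitate synthesis, for desaturation and for the glycerolipid and sterol ester group. The elongases show the widest gap between the diets' means.

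Other genes of these pathways, which are no part of the 33, are described beside the shares of all genes, 54.5% lower, 4.15% lower at an unadjusted p below 0.05 and 2.53% lower without overlap of the diets. None of them passed an adjusted p of 0.05 in limma. These lists were also chosen with earlier results of these data known, so their counts are descriptions. Among further genes of fatty acid synthesis and elongation 19 of 24 were lower, with a median of -0.75 SD units, and 3 stood at an unadjusted p below 0.05. These were *Hsd17b12* and *Tecr*, which complete each elongation cycle, at -1.71 and -1.69 SD units, and *Pgd*, a source of NADPH, at -1.71 SD units. In further glycerolipid and droplet genes 15 of 21 were lower (median -0.34 SD units). The smallest p values were those of *Mgll*, a monoacylglycerol lipase, which was lower (-1.88 SD units), *G0s2*, an inhibitor of lipolysis, which was higher (1.41 SD units), and *Agpat3*, which was lower (-1.33 SD units). A list of further regulators and markers of the gland, which also held general lipid enzymes such as *Lpcat3* and *Agps*, had 11 of 13 lower (median -0.89 SD units). *Lpcat3*, which remodels phospholipids, stood at -2.78 SD units, *Pparg*, the nuclear receptor of sebocyte and adipocyte maturation, at -2.66 SD units and *Lrig1*, a marker of stem cells above the gland, at -1.87 SD units. In these 3 the diets did not overlap, and their adjusted p in limma was 0.651, 0.698 and 0.886. After median centring 23 of 24, 17 of 21 and 13 of 13 of these lists were lower, and after quantile normalization 13 of 21, 15 of 20 and 7 of 13. Of all genes 86.5% and 66.9% were lower in these settings.

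Adipocytes share many of these genes, and their own markers were tested beside them. Of 11 adipocyte markers tested 8 were higher and 3 lower as deposited (median 0.25 SD units), and 5 were higher and 6 lower after median centring. In that setting 86.5% of all genes were lower. The values below are as deposited. Their mean log2 level ran from 10.2886 to 10.2905 over the collagen-diet arrays, against 10.2880 to 10.2910 over the control-diet arrays. *Car3*, *Lpl* and *Retn* had the smallest p, at 0.91, 0.89 and 0.69 SD units, each with an adjusted p of 0.999 in limma. *Ucp1*, the defining gene of brown fat, had a mean log2 level of 6.29, below the filter. Of the other brown fat markers without *Cidea* and *Elovl3*, *Dio2* differed by -0.43 SD units, *Cox7a1* by 0.37 SD units and *Cox8b* by 0.26 SD units. Muscle markers were higher in 16 of 17 (median 0.23 SD units), none at an unadjusted p below 0.05, led by *Myh4* (0.65 SD units), *Pvalb* (0.45) and *Ckmt2* (0.41), but 13 of 17 were lower without control replicate 4. Medians were 0.11 SD units in basal keratinocyte, 0.38 in suprabasal keratinocyte, 0.49 in dermal fibroblast and 0.20 in macrophage markers.

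Of 32 further probe sets of 20 of these genes, 19 (59.4%) differed the same way as the probe set used, against 57.1% over all genes.

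**Figure D4:**
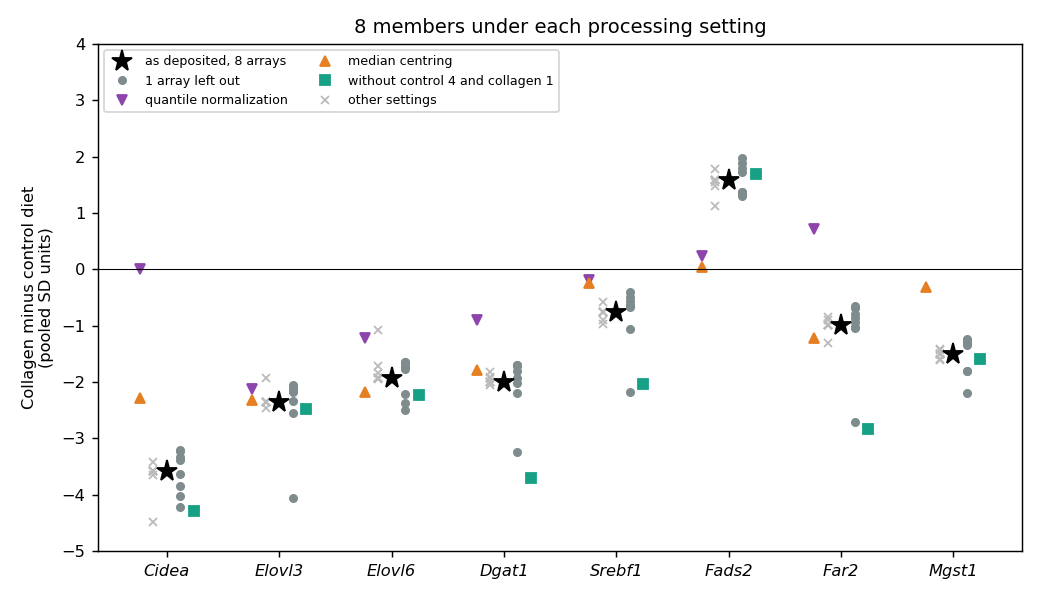
Difference between the diets (collagen minus control, pooled SD units, vertical axis) of 8 genes under each processing setting. *Elovl3*, *Elovl6* and *Dgat1* stayed below 0 in every setting shown, *Cidea* reached 0 after quantile normalization, and *Far2* turned to 0.71 there. *Mgst1* has no quantile value because its arrays were equal.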

How the data were processed

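The samples were 8 dorsal skin samples, 4 per diet, grouped by their titles. Per the labels' protocols, total RNA was extracted from frozen powdered skin, and 200 ng was copied into biotinylated RNA with a kit that works from the 3' end. The deposited values are log2 values, 1 column per array. R 2.7.2 is named in the submitters' processing notes, and the sources used here do not give the method of summarization or normalization. The unit was judged from the range of the values. At most 0.0155% of values were the same on a pair of arrays.

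Of 45101 probe sets 64 controls were set aside. The platform annotation, which can be old, names 1 symbol for 34945, several for 932 and none for 9160 of the others. For 34741 of the first kind the Entrez ID was found in RefSeq's gene table. The diets were compared in all 12735 genes with lmFit and eBayes of limma 3.58.1 (R 4.3.3, intensity trend, two-sided, Benjamini-Hochberg, threshold 0.05), with 6 residual and 0.613 prior degrees of freedom. The fit was tested on simulated data. The 33 genes and all lists were chosen with earlier results of these data known, so their counts are descriptions beside those of all genes. Single arrays are given where the unadjusted p was below 0.05, and for the smallest p of each role group that has no such gene. Of other lists up to 3 genes of the smallest p are named. Alternatives were other filters, normalizations, variance models, array weights, a replicate block, other uses of probe sets, a threshold of 0.10 and arrays left out. Promoter windows came from RefSeq on GRCm38.p6.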

Additional observations from a re-analysis of the deposited data

Results flagged for a closer look

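In 3 of 58 sets of 4 arrays (29 genes, 2 diets) a single array lay far from the other 3 by Dixon's criterion at 95%, and chance alone flags about 5% of sets. For *Gpam* control replicate 4 lay far below the other control-diet arrays, with a gap of 0.937 of the group's range. For *Fads3* collagen replicate 3 lay far below the other collagen-diet arrays (0.891), and for *Krt79* collagen replicate 2 far above them (0.863).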

How the results depend on the processing

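No gene of the 29 passed in any of the 22 alternatives. Over all genes 1 gene passed, against 0, when the lowest 50% were left out, at an adjusted p below 0.10 and without control replicate 1 (0 to 1 over single arrays left out). Leaving out single arrays gave 14 to 19 lower genes and medians of -0.68 to 0.0014 SD units. Median centring gave 24 lower genes, in a setting where 86.5% of all genes were lower, against 54.5% as deposited. By its construction quantile normalization keeps only differences that change a rank, and it left 7 of the 29 genes equal on all arrays and 3 with equal diet means. Of the 29 genes 15 kept their direction wherever they had one. Quantile normalization turned *Acaca* (0.10 SD units), *Fads1* (-0.27), *Far2* (0.71), *Mogat2* (-0.74), *Dgat2* (-1.13) and *Prdm1* (-0.23). Median centring turned *Acly* (-0.069), *Scd1* (-0.14), *Fads1* (-0.090), *Gpam* (-0.18), *Mogat2* (-0.012), *Fabp5* (-0.14), *Prdm1* (-0.072) and *Pm20d1* (-0.14). All of these turned lower, in a setting where most genes of the array were lower. A shift by the median standardized deviation turned *Me1* (0.10), array weights *Gpam* (-0.11), and the mean of all probe sets *Me1* (0.25), *Scd1* (-1.87) and *Pm20d1* (-0.71). Leaving out control replicate 4 with collagen replicate 1 turned *Acly* (-0.10), *Scd1* (-0.91), *Gpam* (-0.25) and *Prdm1* (-0.18). With single arrays or this pair left out the difference ran from -0.10 to 1.07 in *Acly*, -1.02 to 0.48 in *Me1*, -0.91 to 0.74 in *Scd1*, -0.096 to 0.79 in *Scd2*, -0.59 to 0.32 in *Gpam*, -0.92 to 0.49 in *Prdm1* and -0.89 to 0.0014 in *Mc5r*. The causes were not tested. Replicate numbers are shared between the diets, but same-numbered arrays did not deviate together (correlations 0.00, -0.02, 0.18 and -0.07 for numbers 1 to 4), and 1 of 4 collagen-diet arrays correlated best with its own number. With the replicate block 0 genes passed, the median of the 29 was -0.60 SD units (-0.085 over all genes), and *Cidea* stood at -4.49 SD units (adjusted p = 0.839 in limma). At an unadjusted p below 0.05 the block had *Plin2* in place of *Dgat1*, and the mean of all probe sets had *Scd1* in place of *Elovl6*.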
